A study of Mus musculus with 4 samples.

Results

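The genes described here encode the parts of the mTOR complexes and a few of their regulators. They are Mtor, Mlst8, Deptor, Rptor, Rictor, Mapkap1, Prr5, Prr5l, Ddit4 and Sesn2, chosen by gene symbol, and all 10 were present among the 45777 genes of the table. They were put together because Prr5l had a lower read count in treated cells, so the read counts of 6OHA against control cells were in view when they were chosen. Their values in that contrast are therefore given as a description, with no p-value printed and no test drawn from them. The RNA came from MG5, a line of mouse microglial cells labelled WT, which was grown in part in medium that astrocyte-like A1 cells had conditioned. In 2 libraries (6OHA replicates 1 and 3) the cells were exposed for 6 h to 10 µM 6OHA, a code-named compound that activates the retinoid X receptor (RXR), a nuclear receptor. In the other 2 (control replicates 1 and 2) the cells were untreated, with nothing stated about solvent. Cells given bexarotene, another RXR agonist named in the study's design, were not analysed here.

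mTOR is a protein kinase that couples nutrients, growth factors and stress to growth. It works in a pair of complexes that share the kinase and its partner mLST8. Complex 1 contains raptor, is switched on at the lysosome by amino acids, and drives translation and lipid synthesis. Complex 2 contains rictor, mSIN1 and a Protor subunit, and phosphorylates kinases of the AKT, SGK and PKC families. The Protor subunits are the paralogues Protor-1, encoded by Prr5, and Protor-2, encoded by Prr5l. In macrophages and microglia both complexes are known to act in metabolism and in the response to inflammatory signals.

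Total counts ran from 31057950 to 42541641 per library. Levels are given as CPM, the count scaled to a common library total, and an undetected gene may have up to 0.0705 to 0.0966 CPM, which is 3 counts of the library and takes in counting error alone. Levels in TPM are the authors' values, scaled for transcript length as well. All 10 microglia and macrophage markers examined lay above 1 TPM, with summed levels of 5276 and 5629 TPM in 6OHA and 5392 and 5512 TPM in control libraries. Of 6 astrocyte markers, Gfap and Aqp4 were at 0 counts in all libraries. The summed level was 9.98 to 10.3 TPM in 6OHA and 14.9 to 15.1 TPM in control libraries. Most of it was Aldh1l1, at 8.01 and 8.72 TPM in 6OHA, against 11.8 and 11.5 TPM in control libraries. Slc1a2 had 1.98 and 1.51 TPM in 6OHA, against 3.35 and 3.37 TPM in control libraries. Markers of neurons summed to 3.31 to 3.42 TPM in 6OHA and 4.38 to 5.35 TPM in control libraries. Those of endothelial cells summed to 5.01 to 5.54 and 5.04 to 5.91 TPM, and those of fibroblasts to at most 0.0466 TPM. Oligodendrocyte markers summed to 42.8 to 44.8 and 34.4 to 36.9 TPM, nearly all Mbp. This is far below the microglial sum but not low beside the 10 genes described here, whose highest mean was 35.1 TPM (Mapkap1). The part of these cell types in the results was not tested. Separate cultures are not stated for the libraries of a group, and the spread behind each p-value may therefore be technical. In these bulk samples fewer cells of a type and less RNA per cell cannot be told apart.

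Prr5l (Entrez gene 72446) lies on chromosome 2 from 101713110 to 101883052 on the minus strand of GRCm38, and 0 other annotated genes overlap it. RefSeq gives it 3 start sites, and the deposited table sums its transcripts into a single count, so the values do not say which start was used. The 250 bases before each start are shown because the set was built around Prr5l. They are from RefSeq on GRCm38.p6, written 5′ to 3′ along the minus strand.
Prr5l start at the far 5′ end, chr2:101883028-101883277: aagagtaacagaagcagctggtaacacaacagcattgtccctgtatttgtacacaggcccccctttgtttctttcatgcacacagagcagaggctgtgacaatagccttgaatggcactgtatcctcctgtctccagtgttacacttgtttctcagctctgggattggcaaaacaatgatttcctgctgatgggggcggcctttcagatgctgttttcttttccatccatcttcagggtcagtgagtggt
Prr5l middle start, chr2:101838981-101839230: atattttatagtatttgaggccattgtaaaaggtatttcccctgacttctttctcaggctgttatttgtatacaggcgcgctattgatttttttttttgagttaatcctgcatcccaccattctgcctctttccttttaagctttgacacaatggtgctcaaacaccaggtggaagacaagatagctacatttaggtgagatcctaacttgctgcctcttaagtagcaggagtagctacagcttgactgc
Prr5l start nearest the 3′ end, chr2:101797708-101797957: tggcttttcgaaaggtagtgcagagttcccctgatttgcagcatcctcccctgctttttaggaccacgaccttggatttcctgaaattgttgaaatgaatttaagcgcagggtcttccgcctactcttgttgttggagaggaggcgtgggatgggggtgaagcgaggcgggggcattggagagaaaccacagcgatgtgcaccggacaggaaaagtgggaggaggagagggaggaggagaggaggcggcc
Of the 10 genes, 9 had such windows, 13 in all, and Deptor had none. Each window was searched on both strands for AGGTCA, a half-site bound by RXR and its partners, and for TGATGNAA, an element bound by ATF4. It was also searched for GTAAACA, an element bound by FoxO factors, and ACGTG, the core of the hypoxia element. Variants of these letters were not searched for. None of the 3 Prr5l windows held any of these letters, which is why they carry no capitals. AGGTCA was in 0 of the 13 windows and in 14.0% of all 32851 promoter windows of this length, and TGATGNAA was in 0 of 13 and in 3.45% of all. GTAAACA was in 2 overlapping windows of Mapkap1 (3.17% of all), and ACGTG was in 1 window each of Rptor and Ddit4 (16.6% of all). The Ddit4 window is shown with ACGTG, which begins 187 bases before the start, in capitals.
Ddit4, chr10:59951771-59952020, minus strand: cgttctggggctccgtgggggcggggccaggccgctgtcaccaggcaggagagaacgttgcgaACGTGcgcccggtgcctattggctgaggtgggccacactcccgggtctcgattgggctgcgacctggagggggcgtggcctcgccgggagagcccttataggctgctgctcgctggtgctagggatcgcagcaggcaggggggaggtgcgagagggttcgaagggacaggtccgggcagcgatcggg
A match is a run of letters, and binding was not measured.

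Prr5l encodes a subunit of complex 2 that has also been reported to bind the RNA-decay factor tristetraprolin and to restrain the phosphorylation of protein kinase C delta. It had 103 and 127 counts in 6OHA replicates 1 and 3, against 360 and 275 counts in control replicates 1 and 2. Scaled for library size, this was 3.34 and 3.64 CPM in 6OHA cells, against 8.39 and 7.92 CPM in control cells. Both 6OHA libraries lay below both controls, and the libraries of each group lay close together. Prr5l was 2.33-fold lower, at 3.49 ± 0.206 CPM in 6OHA and 8.16 ± 0.328 CPM in control (SD, n = 2; log2 difference -1.22, SE 0.17). Per transcript length it had 1.13 and 1.18 TPM in 6OHA cells, against 3.29 and 2.64 TPM in control cells. Of its transcripts, 1.00% of the 31-base stretches occur in transcripts of other genes. The plot of each gene by library shows these values beside those of the rest of the set. The set was built around the lower Prr5l count, so the distance of Prr5l from the others is no result.

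**Figure D1:**
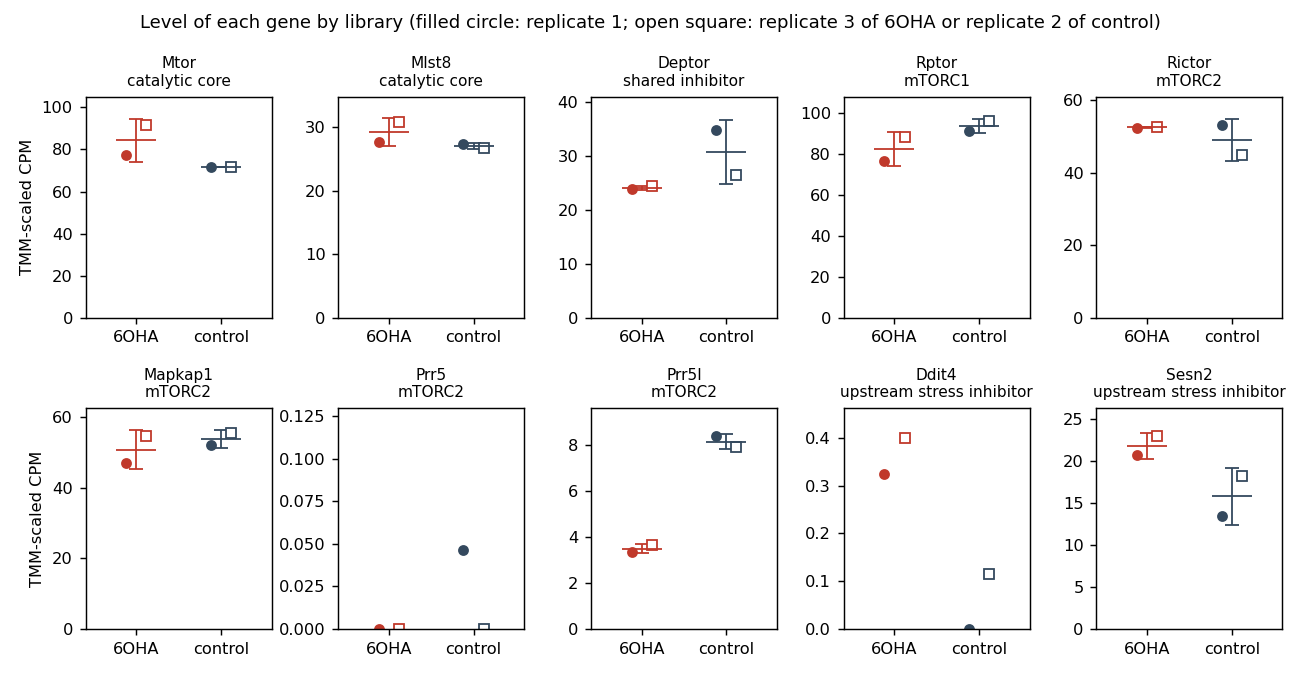
TMM-scaled CPM (y axis, linear, from 0) of the 10 genes in the 2 libraries of 6OHA (left of each panel) and the 2 of control (right). Points are libraries; bars are the mean and SD of 2 libraries, left out for Prr5 and Ddit4. Prr5l sits at 3.34 and 3.64 CPM in 6OHA against 8.39 and 7.92 CPM in control, while the groups of Rictor and Mapkap1 overlap.

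Of the 9 genes with enough counts to be fitted, Prr5l alone lay past the threshold of edgeR's quasi-likelihood fit over all genes (Benjamini-Hochberg adjusted p under 0.05). Across the 14634 genes tested, 0.629% lay past it with a lower level in 6OHA, 1.39% with a higher level and 2.02% in either direction. These shares give the background. Nothing is read from the count or from the place of Prr5l past the threshold, since the contrast chose the genes. Ddit4, which passed the filter on low counts through the 6OHA libraries alone, is left out of the next counts. In CPM, both 6OHA libraries lay above both controls for 3 of the 8 other fitted genes and below them for 3. The groups overlapped for 2. Prr5l is among the 3 below, where the choice of genes put it, so nothing is read from these counts. Of all tested genes, 18.7% had both 6OHA libraries above both controls, 20.1% had them below, and 38.8% had groups that did not overlap. These counts depend on the unit, since the groups of Mlst8 and Rptor overlapped in TPM. The median log2 difference of these 8 genes, Prr5l included, was 0.01, beside -0.01 for all tested genes.

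The other Protor gene, Prr5 (Entrez 109270, chromosome 15 from 84663206 to 84706409), was close to undetected. It had 0 counts in both 6OHA libraries, against 2 counts in control replicate 1 and 0 in control replicate 2. These zeros allow up to 0.0966 and 0.0850 CPM in 6OHA replicates 1 and 3, against 0.0872 CPM in control replicate 2. Prr5 did not reach the filter on low counts and has no fitted difference. Nearly all Protor transcripts counted in these cells were therefore from Prr5l in both groups.

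The groups overlapped for both scaffold genes of complex 2. Rictor, which encodes the defining subunit of the complex (Entrez 78757, chromosome 15 from 6708349 to 6800401), had 52.5 and 52.7 CPM in 6OHA cells, against 53.2 and 44.9 CPM in control cells. For Rictor, control replicate 1 was the highest of the 4 libraries and control replicate 2 the lowest. Its log2 difference was 0.10 (SE 0.11). Mapkap1, which encodes mSIN1, the subunit that places substrates for the kinase (Entrez 227743, chromosome 2 from 34406771 to 34624958), had 46.8 and 54.6 CPM in 6OHA cells, against 52.0 and 55.5 CPM in control cells. Its groups overlapped too, with a log2 difference of -0.08 (SE 0.11). Set against Rictor, the TPM of Prr5l was 9.23% and 9.56% in the 6OHA libraries, against 26.3% and 25.5% in the control libraries. This ratio combines a lower Prr5l level with a Rictor level that overlapped between groups, and it describes transcripts, not subunits.

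In CPM, both genes of the catalytic core were higher in both 6OHA libraries than in both controls, by small differences that for Mlst8 did not hold in TPM. Mtor, the kinase gene (Entrez 56717, chromosome 4 from 148448582 to 148557685), had 77.2 and 91.5 CPM in 6OHA cells, against 71.5 and 71.8 CPM in control cells. The 6OHA libraries differed from each other by more than 6OHA replicate 1 differed from either control. Its log2 difference was 0.24 (SE 0.11), and 0.11 without 6OHA replicate 3. Mlst8, whose product stabilises the kinase domain (Entrez 56716, chromosome 17 from 24473550 to 24479114), had 27.7 and 30.8 CPM in 6OHA cells, against 27.4 and 26.7 CPM in control cells. In CPM the groups lay next to each other without overlap, with a log2 difference of 0.11 (SE 0.11). In TPM they overlapped, at 17.7 and 19.6 in the 6OHA libraries, against 17.8 and 16.8 in the control libraries.

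Rptor, which encodes raptor and recruits the substrates of complex 1 (Entrez 74370, chromosome 11 from 119602905 to 119899591), had 76.7 and 88.6 CPM in 6OHA cells, against 91.2 and 96.2 CPM in control cells. In CPM both 6OHA libraries were below both controls, with a log2 difference of -0.18 (SE 0.10), and -0.08 without 6OHA replicate 1. In TPM the groups overlapped, at 23.9 and 29.9 in the 6OHA libraries, against 31.9 and 29.0 in the control libraries. Set against Mtor, its TPM was 125% and 127% in the 6OHA libraries, against 172% and 164% in the control libraries. This ratio combines a small Rptor difference with a small Mtor difference in the other direction, and it describes transcripts, not subunits. Rptor was the more abundant of this pair of transcripts in all 4 libraries.

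Deptor encodes an inhibitor that binds the kinase in both complexes (Entrez 97998, chromosome 15 from 55112317 to 55259273). It had 23.8 and 24.4 CPM in 6OHA cells, against 34.9 and 26.5 CPM in control cells. The 6OHA libraries were alike and below both controls, and the controls were far apart. The log2 difference was -0.35 (SE 0.14), at -0.13 without control replicate 1 and -0.53 without control replicate 2. The size of the Deptor difference thus turned on which control library it was set against.

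Ddit4 and Sesn2 encode stress-induced brakes on complex 1. Ddit4, also called REDD1, acts through the TSC complex (Entrez 74747, chromosome 10 from 59949675 to 59951770). It had 10 and 14 counts in 6OHA cells, against 0 and 4 counts in control cells. This was 0.325 and 0.401 CPM in 6OHA cells, against 0 and 0.115 CPM in control cells, where the 0 allows up to 0.0705 CPM. It passed the filter on low counts only through the 6OHA libraries. Summed over libraries, 24 counts in 6OHA stood against 4 in control. With so few reads its fitted difference depends on the prior count, and no fold change is given. Ddit4 transcripts were thus near the detection limit in both groups.

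Sesn2, which encodes a leucine-binding sestrin that restrains complex 1 through GATOR2 (Entrez 230784, chromosome 4 from 132492804 to 132510456), had 20.8 and 23.0 CPM in 6OHA cells, against 13.4 and 18.2 CPM in control cells. Both 6OHA libraries were above both controls, and the controls again differed more than the 6OHA libraries did. The log2 difference was 0.48 (SE 0.15), at 0.27 without control replicate 1 and 0.70 without control replicate 2. Without control replicate 2, Deptor and Sesn2 lay past the threshold beside Prr5l, as did Ddit4, whose remaining control had 0 counts, where 3.32% of all genes tested lay past it. Nothing is read from this count either.

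Compared per transcript length, the 10 genes spanned a wide range of levels. By mean TPM over the 4 libraries the order was Mapkap1 at 35.1, Rptor at 28.7, Mtor at 19.7, Mlst8 at 17.9, Sesn2 at 15.1, Rictor at 11.9, Deptor at 6.88, Prr5l at 2.06, Ddit4 at 0.250 and Prr5 at 0.00423. Several neighbours in this order could not be separated over all libraries. The ranges of Mapkap1 and Rptor overlapped, as did those of Mtor and Mlst8, of Mlst8 and Sesn2, of Sesn2 and Rictor, and of Ddit4 and Prr5. Rptor lay above Mtor, Rictor above Deptor, Deptor above Prr5l and Prr5l above Ddit4 without overlap. Within each library, Mapkap1 lay above Rptor, Rptor above Mtor and Mtor above Mlst8 in 4 of 4 cases. Among the 14634 tested genes Mapkap1 ranked 4634 by mean TPM, Mtor ranked 6595 and Prr5l ranked 11595, so Protor transcripts were the scarce part of complex 2 in these cells.

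**Figure D2:**
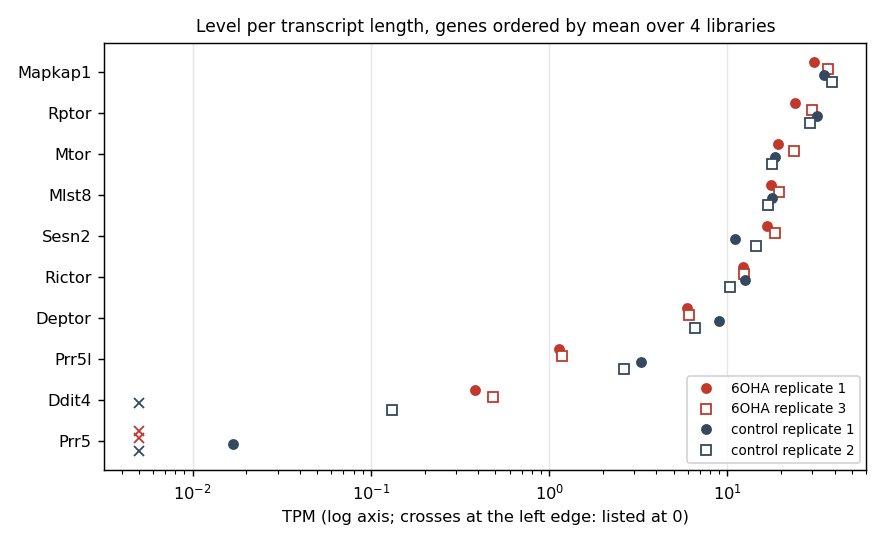
TPM (x axis, log scale) of the 10 genes, ordered from top to bottom by their mean over 4 libraries; each point is a library and crosses mark values listed at 0. The core and scaffold genes lie between 10.4 TPM (Rictor, control replicate 2) and 38.5 TPM (Mapkap1, control replicate 2), and Prr5l lies between 1.13 and 3.29 TPM.

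The libraries of a group differed along the GC content of transcripts, and the 10 genes showed this as well. Among the 8 fitted genes other than Ddit4, GC content ran from 41.6% in Rictor to 58.7% in Sesn2. Rictor and Deptor (46.0% GC) were higher in control replicate 1 than in control replicate 2, by 0.25 and 0.40 on the log2 scale. Sesn2 differed by -0.44 between the same libraries, and Prr5l (51.5% GC) by 0.08. Across these 8 genes GC content and the difference of control replicate 1 from control replicate 2 had a Spearman correlation of -0.71, and across 13555 tested genes with a GC value it was -0.55. For 6OHA replicate 1 against replicate 3 the correlations were -0.48 and -0.44. The points share the same libraries, so these are descriptions. Replicate 1 thus differed from the other library of its group in the same sense in both groups, and across all tested genes the 6OHA minus control difference had a correlation of -0.02 with GC content, and across the 8 genes one of 0.45.

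**Figure D3:**
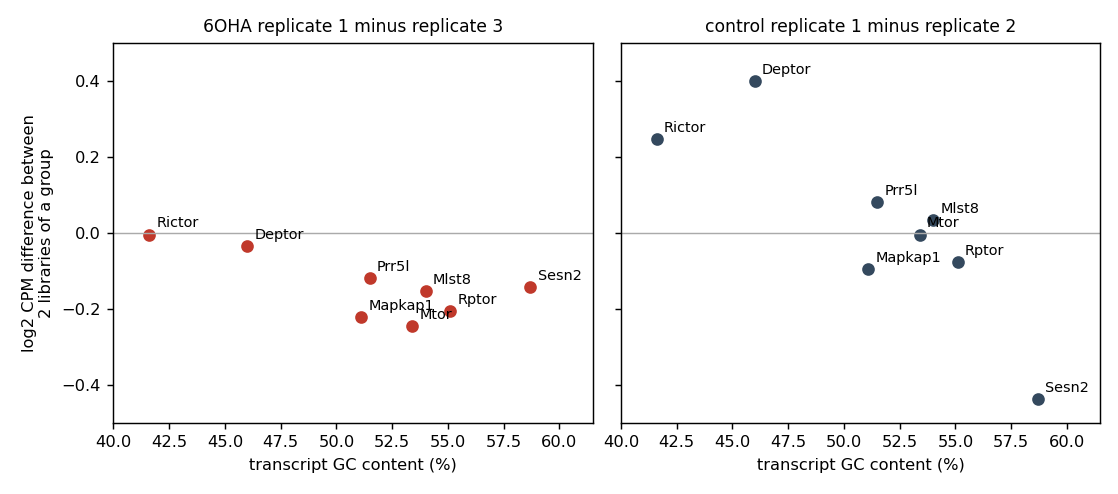
Log2 CPM difference between the 2 libraries of a group (y axis) against transcript GC content in percent (x axis), for 6OHA (left) and control (right); each point is a gene, Ddit4 and Prr5 left out. Rictor and Deptor lie at 0.25 and 0.40 and Sesn2 at -0.44 in the control panel, while Prr5l lies at -0.12 in the 6OHA panel and 0.08 in the control panel.

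With a GC offset for each library, an alternative added after the data were seen, the log2 differences were -1.24 (SE 0.16) for Prr5l, 0.52 (SE 0.10) for Sesn2, -0.34 (SE 0.11) for Deptor and 0.23 (SE 0.08) for Mtor. Those of Rptor, Rictor, Mlst8 and Mapkap1 were -0.18, 0.12, 0.11 and -0.10. Prr5l and Sesn2 lay past the threshold in that fit, where 5.93% of all genes did. The standard errors were smaller with the offset than without it for each of these 8 genes.

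Beyond these genes, 138 genes of the surrounding pathway were present in the table and 128 were tested. With edgeR's quasi-likelihood test and Benjamini-Hochberg adjustment over all genes, 3 rose, 0 fell and 125 did not pass. This is 2.34% of the tested pathway genes, near the 2.02% of all genes. At an unadjusted p under 0.05, 11 were higher and 4 lower, where 5.12% of all tested genes were higher and 5.75% lower. The DESeq2 test called 5 pathway genes higher and 0 lower, and of all genes it called 2.02% higher and 0.916% lower. The median log2 difference was 0.03, beside -0.01 for all tested genes, and the values ran from -0.54 for Phlpp1 (adjusted p = 0.159) to 0.91 for Lpin1.

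The 3 genes that rose belong to different steps. Castor2 is the paralogue of the arginine sensor Castor1, which acts on GATOR2 (Entrez 80909, chromosome 5 from 134099748 to 134141782). It had 37.0 and 42.5 CPM in 6OHA cells, against 23.0 and 23.5 CPM in control cells. It was 1.71-fold higher, with groups that did not overlap (log2 fold change 0.77, SE 0.12, edgeR adjusted p = 0.00496). Castor1 itself had 0.886 ± 0.0787 CPM in 6OHA and 0.783 ± 0.482 CPM in control (SD, n = 2; edgeR adjusted p = 0.944).

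Lpin1 encodes a phosphatidate phosphatase whose entry into the nucleus is controlled by complex 1 (Entrez 14245, chromosome 12 from 16535669 to 16653903). It had 7.37 and 8.90 CPM in 6OHA cells, against 4.50 and 4.15 CPM in control cells, and was 1.88-fold higher (log2 fold change 0.91, SE 0.18, edgeR adjusted p = 0.0246). With 6OHA replicate 3 left out its adjusted p was 0.141. Foxo3 encodes a transcription factor that AKT and SGK kinases exclude from the nucleus (Entrez 56484, chromosome 10 from 42181845 to 42276695). It had 43.5 and 49.3 CPM in 6OHA cells, against 31.5 and 32.8 CPM in control cells, and was 1.45-fold higher (log2 fold change 0.53, SE 0.11, edgeR adjusted p = 0.0336). Its adjusted p was 0.350 with 6OHA replicate 3 left out and 0.0644 with control replicate 1 left out. With no filter on low counts, and on FPKM or TPM values, none of the 3 passed, at adjusted p values from 0.0542 to 0.0976 for Castor2, from 0.111 to 0.170 for Lpin1 and from 0.163 to 0.243 for Foxo3.

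By step, 1 of 10 tested genes of complex 1 adaptors and assembly rose and 0 fell, with a median of 0.05, and 2 were higher and 0 lower at an unadjusted p under 0.05. Ruvbl2, an assembly ATPase, and Tti1, of the complex that folds the kinase, had the highest CPM and did not pass, at log2 differences of -0.05 and 0.06 (adjusted p = 0.963 and 0.944). Ddit4l and Sesn3, relatives of Ddit4 and Sesn2, had 0 counts in all libraries, which allows up to 0.0966 CPM. Sesn1 had 15.7 ± 0.128 CPM in 6OHA and 12.8 ± 1.24 CPM in control (SD, n = 2; edgeR adjusted p = 0.459).

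The amino acid branch showed 0 calls in 14 tested genes of the Rag GTPases, Ragulator and Rheb (median -0.02) and 0 in 12 genes of GATOR and KICSTOR (median 0.01) by edgeR. At an unadjusted p under 0.05 these lists had 1 and 0 higher, and 0 lower in either. The higher gene was Rraga, at 80.8 and 77.1 CPM in 6OHA cells, against 63.6 and 64.1 CPM in control cells. Its log2 difference was 0.31 (edgeR adjusted p = 0.182), and it passed as higher with the GC offset. Rragc, a Rag GTPase gene, had 394 ± 11.9 CPM in 6OHA and 360 ± 6.20 CPM in control (SD, n = 2; edgeR adjusted p = 0.702). Fnip2, a folliculin partner, was at a log2 difference of 0.04, Sec13 at 0.13 and Seh1l at -0.07 (adjusted p = 0.956, 0.752 and 0.891). The DESeq2 test called 0 genes of these lists.

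Of 11 genes of TSC and AMPK, the energy-sensing brakes, 0 passed by edgeR or DESeq2, and 0 were past an unadjusted p under 0.05 in either direction. Tsc2, the brake through which Ddit4 acts, had 95.8 ± 0.478 CPM in 6OHA and 88.3 ± 4.51 CPM in control (SD, n = 2; edgeR adjusted p = 0.785), and Cab39 was at a log2 difference of 0.05 (adjusted p = 0.942). Of 20 genes of PI3K and PDK1 signalling, 0 passed by edgeR, while 2 were higher and 1 lower at an unadjusted p under 0.05. The DESeq2 test called Pik3cb, a catalytic subunit of PI3K, which had 227 and 205 CPM in 6OHA cells, against 177 and 164 CPM in control cells (edgeR adjusted p = 0.135). Inpp5d, the lipid phosphatase of blood cells, was at 0.00 (adjusted p = 1.00).

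Of 13 tested genes of the AGC kinases that complex 2 phosphorylates and of FoxO factors, Foxo3 alone rose and 0 fell. At an unadjusted p under 0.05, 2 were higher and 0 lower, namely Foxo3 and Prkcd. The log2 difference was above 0 for 10 of the 13, beside 73 of the 128 tested pathway genes. Lists differed in this share, with 5 of 14 for the Rag GTPases, Ragulator and Rheb and 1 of 6 for glucocorticoid targets. Nothing is read from it. Prkcb was at a log2 difference of 0.07, Akt1 at 0.03 and Sgk1 at 0.19 (adjusted p = 0.886, 0.971 and 0.521). Of 21 genes of complex 1 substrates and effectors further downstream, Lpin1 alone rose and 0 fell, and 2 were higher and 0 lower at an unadjusted p under 0.05. Those with the highest CPM, Eif4g1 and Rps6, were at 0.05 and 0.06 (adjusted p = 0.935 and 0.899). Of the distinct 31-base stretches of Rps6, 45.0% also occur in its pseudogenes and other genes, so its count is uncertain. The DESeq2 test added Eif4e, the cap-binding factor, at 213 and 199 CPM in 6OHA cells, against 167 and 160 CPM in control cells (edgeR adjusted p = 0.113).

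Among 7 genes linked to Prr5l, namely the tristetraprolin family, Rffl, Gna12, Prkcd and Tnf, 0 passed by edgeR or DESeq2, with 2 higher and 2 lower at an unadjusted p under 0.05. Prkcd, the kinase that Prr5l is reported to restrain, had 218 and 222 CPM in 6OHA cells, against 167 and 190 CPM in control cells. It lay above both controls in both 6OHA libraries, with a log2 difference of 0.30 (SE 0.10, edgeR adjusted p = 0.203), and it passed without control replicate 2 and with the GC offset. Zfp36, which encodes tristetraprolin itself, had 24.8 and 25.5 CPM in 6OHA cells, against 20.6 and 21.4 CPM in control cells. Its log2 difference was 0.26 (edgeR adjusted p = 0.423), while its relatives Zfp36l2 and Zfp36l1 lay on the other side of 0. Zfp36l2 had 158 and 151 CPM in 6OHA cells, against 174 and 191 CPM in control cells (edgeR adjusted p = 0.351). Zfp36l1, of the same family, had 29.4 and 32.6 CPM in 6OHA cells, against 36.7 and 40.3 CPM in control cells (log2 difference -0.31, edgeR adjusted p = 0.298), and it passed as lower with the GC offset.

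Genes commonly regulated together with Ddit4 and Sesn2 were also examined. Of 16 tested ATF4 targets and related genes, 0 passed by edgeR or DESeq2, with 1 higher and 1 lower at an unadjusted p under 0.05 and a median of 0.06. The higher gene was Asns (log2 difference 0.21, edgeR adjusted p = 0.390). The lower was Slc7a11, at 192 and 192 CPM in 6OHA cells, against 269 and 220 CPM in control cells. Its log2 difference was -0.35 (edgeR adjusted p = 0.177), and it passed as lower with the GC offset. Atf4 itself had 298 and 311 CPM in 6OHA cells, against 263 and 286 CPM in control cells (edgeR adjusted p = 0.652), and Slc3a2, an amino acid transporter subunit, was at -0.14 (adjusted p = 0.716). Of 6 tested glucocorticoid targets, 0 passed by edgeR or DESeq2 and 0 were past an unadjusted p under 0.05, with a median of -0.10. Fkbp5, a marker of that response, had 57.6 ± 3.92 CPM in 6OHA and 62.4 ± 0.987 CPM in control (SD, n = 2; edgeR adjusted p = 0.806).

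**Figure D4:**
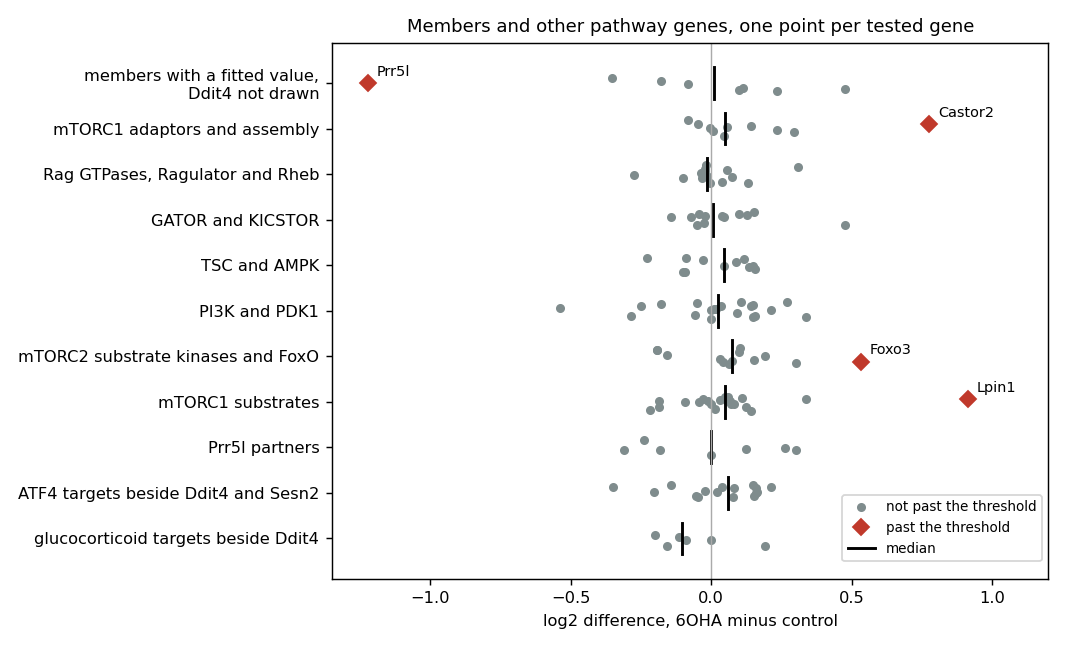
Log2 difference of 6OHA minus control (x axis) for 8 of the 10 genes described here (top row) and for the tested genes of 10 lists of other pathway genes; each point is a gene, diamonds are past the threshold and black bars are medians. Prr5l lies at -1.22, apart from Castor2 at 0.77, Lpin1 at 0.91 and Foxo3 at 0.53 on the other side of 0. Sgk1 and Prkcd are in 2 lists each, and the row of mTORC1 substrates also holds effectors further downstream.

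The genes whose levels over the 4 libraries ran most like those of Prr5l were sought among 9644 tested genes with a mean of at least 5 CPM. The measure was the distance between log2 CPM profiles, each centred on its own mean. The 5 nearest were Il17ra at 0.23, Dkk2 at 0.25, Kcna3 at 0.25, Cped1 at 0.28 and Ch25h at 0.33 log2 units. They encode an interleukin 17 receptor subunit, a Wnt antagonist, a potassium channel, a protein of poorly known role and cholesterol 25-hydroxylase. All 5 had, like Prr5l, lower levels in both 6OHA libraries, as the measure selects, and 4 libraries hold few distinct profiles.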

How the data were processed

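Poly-A RNA of 2 6OHA and 2 control libraries of MG5 cells had been sequenced with a stranded kit. Whole read counts of each gene were deposited by the authors without normalization, per the file headers. The FPKM values were scaled by transcript length and library size before they were deposited by the authors, and the TPM values were deposited beside them, per the file headers. The tools named in the submitters' processing notes were Bowtie2, HISAT2 2.1.0, StringTie 2.1.3b, SAMtools 1.9, Trimmomatic 0.38 and bcl2fastq 2.20.0, and the build was mm10, with no roles given. Whether counting used strand is not given in the sources used here.

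The low-count filter of edgeR 4.0.16 (filterByExpr) left 14634 genes, which were scaled by TMM, and fitted by group with edgeR's quasi-likelihood method (legacy mode off). Calls were made at an adjusted p under 0.05 (Benjamini-Hochberg). CPM are counts relative to the TMM-scaled library total. Standard errors are the log2 difference over the root of the F statistic. The members, the lists and the rule for named genes were chosen with earlier results of these data known. The rule named the 10 genes, every called pathway gene, the 2 tested genes of each list with the highest mean CPM and the 5 genes nearest to Prr5l. Phlpp1, Castor1, Sesn1, Ddit4l, Sesn3, Eif4e, Prkcd, Sgk1, Zfp36, Zfp36l1, Slc7a11, Asns and the genes named with settings were, where the rule does not name them, chosen after their values were seen. A gene of the lists is not reported here. The counts of the libraries of a group differed by 10.9 (6OHA) and 22.9 (control) times the chi-square that counting alone gives. This is more than counting error, but it cannot tell separate cultures from separate preparations of the same culture.

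Positions, start sites and promoter windows came from RefSeq on GRCm38.p6, and GENCODE M21 transcripts gave shared 31-base stretches and GC content, the second for 92.6% of tested genes. Alternatives changed the scaling (upper quartile, DESeq2 size factors), the test (DESeq2 1.42.0, limma 3.58.1 with voom), the filter (none, or 5 CPM on average), the unit (limma on log2(FPKM + 1), log2(FPKM + 0.1) and log2(TPM + 1)), the threshold (0.01) and the libraries (each left out in turn, where the lone library of a group is assumed to vary like the other group). A GC offset per library was added after the data were seen. R 4.3.3 and Python 3.11.15 were used, and the fit was tested on simulated data.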

Additional observations from a re-analysis of the deposited data

How the results depend on the processing

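The direction of Prr5l is fixed by the choice of genes and is no sign of stability. Its log2 difference was -0.61 on log2(FPKM + 1) and -0.88 on log2(TPM + 1), scales that understate the change of low genes, -1.28 to -1.16 with 1 library left out, and -1.30 without control replicate 2 and with the GC offset together. Rictor and Mapkap1 changed sign with 1 library left out, at -0.02 without control replicate 2 and 0.02 without 6OHA replicate 1. Genes past the threshold numbered 0 higher and 1 lower among the 10, 0 to 2 higher and 1 to 2 lower with 1 library left out, and 1 higher with the GC offset.

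Over all genes, 203 were higher and 92 lower. These counts were 96 and 24 with no filter, 101 and 34 on log2(FPKM + 1), 109 and 40 on log2(FPKM + 0.1), 120 and 32 on log2(TPM + 1), 118 and 31 at an adjusted p under 0.01, and 513 and 355 with the GC offset, which held all 295 genes of the reported fit in the same direction. With 1 library left out they ran from 167 to 314 and from 77 to 186, both highest without control replicate 2, and they were 846 and 726 without that library and with the GC offset together. That offset is fitted to the same libraries and lowers their spread without using a degree of freedom, so its calls are less strict. Of the pathway genes, 3 higher and 0 lower became 5 higher with the DESeq2 test, 0 higher with no filter and on both FPKM scales and TPM, 1 higher at an adjusted p under 0.01, and 8 higher and 2 lower with the GC offset. With 1 library left out they ran from 1 to 4 higher and from 0 to 1 lower, and they were 11 higher and 5 lower without control replicate 2 and with the GC offset. The causes were not tested. Ddit4 did not pass the filter at a mean of 5 CPM or the usual filter without 6OHA replicate 3, and counts as low as those of Ddit4 and Prr5 limit any comparison. No paired analysis was possible because the groups share only replicate number 1.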
